A study of Mus musculus with 4 samples.

Results

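The lysosome genes described here are 51 of the 50600 genes in the count tables of primary mouse T cells. They were taken by a pattern of gene symbols that uses no measured value, although the set was chosen with earlier results of these data known. They comprise 13 genes of the V1 sector and 9 of the V0 sector of the vacuolar proton pump (V-ATPase), 18 cathepsins, 3 lysosome-associated membrane proteins (LAMPs) and the 5 subunits of Ragulator. The symbol pattern also took in 3 further entries, the pseudogenes Atp6v0c-ps1 and Atp6v0c-ps2 and the neighbouring gene Atp6v1fnb. Tcirg1, which encodes a further paralog of the V0 a subunit, does not carry an Atp6v symbol and is treated as a gene outside the set.

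The study sequenced RNA of T cells of the inbred mouse strain C57BL/6NJ in 4 libraries of a single group, numbered as biological replicates 1 to 4. Age is entered as unknown and sex as not collected, no genotype or treatment is entered, and no label says whether the libraries came from separate animals or pools. The alignment names in the file headers hold the words Th0 and activated and a time of 24 h for all 4 libraries, and a CD4+ T-cell differentiation protocol is linked. The assay is titled total RNA-seq, whereas the protocol linked for the libraries names poly(A)+ RNA. With 1 group no contrast between conditions exists, so the questions addressed here are which lysosome genes and paralogs these cells transcribed, at what level, and how far the 4 libraries differed. Levels are TPM, fragments per kilobase of exon scaled to the same total in every library, and are given as mean ± SD over the 4 libraries (n = 4) unless each library is listed in the order of replicates 1 to 4. In RNA from bulk cells, fewer cells that express a gene and less RNA per cell cannot be told apart.

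The lysosome is the acidic compartment in which cells degrade proteins, lipids and sugars delivered by endocytosis and autophagy. The V-ATPase acidifies it. Its cytosolic V1 sector splits ATP and turns a central rotor, and its membrane V0 sector moves protons through a ring of c subunits. Cathepsins are the proteases of the lumen, most of them cysteine proteases that need low pH, and LAMPs coat the inner face of the membrane. Ragulator anchors the Rag GTPases to that membrane, where amino acids recruit the growth kinase complex mTORC1. In T cells, activation raises the demand for amino acids and for mTORC1 signalling, and the transcription factors TFEB and TFE3 are known to drive many lysosome genes through an E-box element.

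The libraries held 47558517 to 273136467 gene-assigned fragments, with replicate 2 the deepest. A count of 3 fragments, taken as the detection floor, corresponded to 0.0379 TPM in the deepest and 0.214 TPM in the shallowest library for a gene with 1 kb of exon. Floors cover counting error only. All 8 T-cell markers reached 10 TPM throughout, with a median of 500.2 TPM. Of 8 neutrophil and mast-cell markers all 8 had no fragment. Summed over their lists, 8 macrophage and monocyte markers reached 5.59 to 8.51 TPM, 6 B-cell markers 3.34 to 7.03 TPM, 6 dendritic-cell markers 0.455 to 0.962 TPM and 6 natural killer and cytotoxic markers 1.57 to 1.78 TPM. Xist was at 163 and 150.5 TPM in replicates 1 and 2 and at 0.715 and 0.696 TPM in replicates 3 and 4, and the Y-linked gene Ddx3y was at 0.0434, 0.0219, 38.8 and 39.3 TPM, so the libraries do not share 1 sex. Lamp2 is the X-linked gene of the set, and its values are given per library below.

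The E-box core CACGTG and its extension TCACGTGA, each of which reads the same on both strands, were sought in RefSeq promoters of build GRCm38.p6, which cover 250 bases before and 50 bases after the annotated gene start. Of the 51 genes, 38 had an entry in that table. Not matched were Atp6v0a2, Atp6v0c-ps1, Atp6v0c-ps2, Atp6v0d2, Atp6v1b2, Atp6v1c1, Atp6v1g1, Atp6v1h, Ctsb, Ctse, Ctsh, Ctsw and Lamtor3. Among the 19 of these at 10 TPM or more in every library, 9 held CACGTG (47.4%) and 5 held TCACGTGA (26.3%). Among all 6316 genes with a promoter entry at that level the shares were 12.8% and 2.60%, and over all 27025 genes in the table they were 8.09% and 1.12%. Among the 19 lysosome genes below that level, 2 held the core (10.5%) and 0 held the extension. The extended match contains the core, so the counts overlap, and a match describes letters in a window, not binding.

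The promoters of the 3 most abundant genes with the extended match show how these letters lie near the start, and that of Lamp1 was added after its 4 core matches were seen. Each is given from 250 bases before the gene start to 10 bases from it onward, 5′ to 3′ on the gene's strand, with every CACGTG or TCACGTGA in capitals. Ctsd encodes the main aspartic protease of the lysosome, Atp6v0d1 the V0 subunit that couples the ring to the rotor, Atp6v1a the catalytic subunit of V1, and Lamp1 an abundant glycoprotein of the lysosomal membrane. The windows lie at chr7:142387818-142388077 on the minus strand for Ctsd, chr8:105566055-105566314 on the minus strand for Atp6v0d1, chr16:44139250-44139509 on the minus strand for Atp6v1a and chr8:13158911-13159170 on the plus strand for Lamp1.

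Ctsd: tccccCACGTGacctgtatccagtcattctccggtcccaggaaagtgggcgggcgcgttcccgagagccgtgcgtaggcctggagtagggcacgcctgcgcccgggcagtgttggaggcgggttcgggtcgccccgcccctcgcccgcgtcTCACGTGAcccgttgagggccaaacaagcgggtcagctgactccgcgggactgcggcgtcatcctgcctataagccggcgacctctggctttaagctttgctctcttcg
Atp6v0d1: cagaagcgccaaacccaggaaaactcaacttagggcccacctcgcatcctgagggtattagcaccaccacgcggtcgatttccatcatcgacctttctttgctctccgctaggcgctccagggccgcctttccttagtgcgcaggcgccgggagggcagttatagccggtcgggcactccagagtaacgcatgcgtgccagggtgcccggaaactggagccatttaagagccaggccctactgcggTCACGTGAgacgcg
Atp6v1a: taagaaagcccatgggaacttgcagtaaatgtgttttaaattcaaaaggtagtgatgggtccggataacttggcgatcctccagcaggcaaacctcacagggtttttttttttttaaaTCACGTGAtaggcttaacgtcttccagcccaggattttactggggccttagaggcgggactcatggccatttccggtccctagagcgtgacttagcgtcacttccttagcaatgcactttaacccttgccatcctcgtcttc
Lamp1: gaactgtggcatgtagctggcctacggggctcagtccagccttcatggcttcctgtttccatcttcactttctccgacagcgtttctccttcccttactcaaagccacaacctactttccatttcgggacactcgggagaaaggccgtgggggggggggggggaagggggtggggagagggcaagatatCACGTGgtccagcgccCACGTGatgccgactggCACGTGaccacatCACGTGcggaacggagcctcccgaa

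The octamer began 99 bases before the start in Ctsd, 4 bases before it in Atp6v0d1 and 132 bases before it in Atp6v1a. These are RefSeq starts, at 142387827 for Ctsd and 44139259 for Atp6v1a. The counted entries of these genes start further upstream, at 142388038 and 44139705, so both octamers lie within the counted gene spans. In Lamp1 the 4 cores began 61, 45, 28 and 15 bases before the start, a cluster that no other promoter of the set held. Atp6v0e and Ctsa carried the octamer as well, and Lamtor1, Lamtor4, Atp6v0b, Ctsl and Ctsf the core without the full extension. The cores of Atp6v0b began 36 and 18 bases before the start and those of Lamtor4 120 and 104 bases before it. Lists of genes outside the set differed in these letters: 5 of 9 other lysosomal membrane and sorting genes held CACGTG and 4 held TCACGTGA, against 6 and 1 of 19 other lysosomal hydrolases and cofactors and 4 and 0 of 22 genes of the Rag and mTORC1 machinery. Neither form was found in the 4 MiT/TFE factor genes or in 5 cathepsin inhibitor genes with an entry, and the V-ATPase accessory and assembly list held 2 and 1 in 8.

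**Figure D1:**
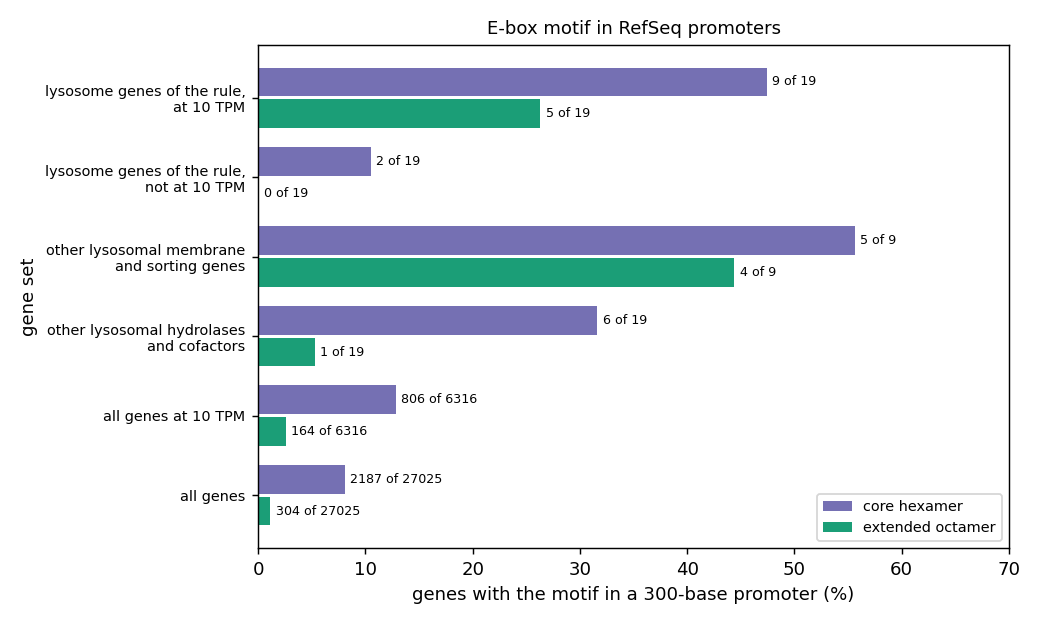
Share of genes (%, horizontal axis) with the core hexamer (violet) or the extended octamer (green) of the E-box in a 300-base RefSeq promoter, for 6 gene sets, with counts beside the bars. The lysosome genes at 10 TPM in every library (9 of 19 and 5 of 19) lie above all genes at that level (806 of 6316 and 164 of 6316).

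Of the 51 lysosome genes, 33 (64.7%) had at least 1 TPM in each of the 4 libraries, a level that 22.7% of all genes reached. At 10 TPM or more in every library stood 26 (51.0%), against 16.0% of all genes. All 26 are protein-coding, and they are 53.1% of the 49 protein-coding genes of the set, against 35.6% of all protein-coding genes. The 33 genes had a median of 50.9 TPM, against 28.6 TPM for the 11483 genes at 1 TPM in every library. Over all 51 genes, including those without a fragment, the median was 10.98 TPM. Of the other 18 genes, 7 had fragments but stayed below 1 TPM in each library and 11 had none. Of all 50600 genes, 28329 had no fragment. The summed level of all 51 was 2200, 2217, 2209 and 2225 TPM in replicates 1 to 4, or 2213 ± 10.7 TPM.

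Ctsz led the set at 250.3 ± 3.94 TPM and Lamp2 closed the list of 26 at 10.98 ± 0.604 TPM. Among the 25 neighbours in this order, 12 had ranges over the 4 libraries that did not overlap and 13 overlapped. The genes Ctsz, Lamp1 and Atp6v1f were each separated from the gene that followed, whereas Lamtor5, Ctsb, Ctsd and Atp6v1c1 overlapped in sequence. In the run from Atp6v1b2 at 75.8 TPM over Atp6v0b, Atp6v0d1, Ctss and Atp6v1g1 to Atp6v1a at 68.4 TPM, each gene overlapped with the next. The order also depends on the exon length used, since the deposited lengths merge the exons of all isoforms. With the length of the longest principal transcript in place of merged exons, Atp6v1f led at 213.8 ± 9.13 TPM, followed by Lamp1 at 190.3 ± 6.44, Lamtor1 at 187.2 ± 10.2 and Ctsz at 173.5 ± 2.85 TPM. The lengths of all genes were exchanged, so the whole TPM scale changed as well. Ctsz has 1441 bases under both lengths and still moved from 250.3 to 173.5 TPM. Atp6v1g1, with 1135 bases under both, moved from 69.5 to 48.2 TPM. Between these scales, here and below, order and shares can be compared, but not the size of a gene's TPM.

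**Figure D2:**
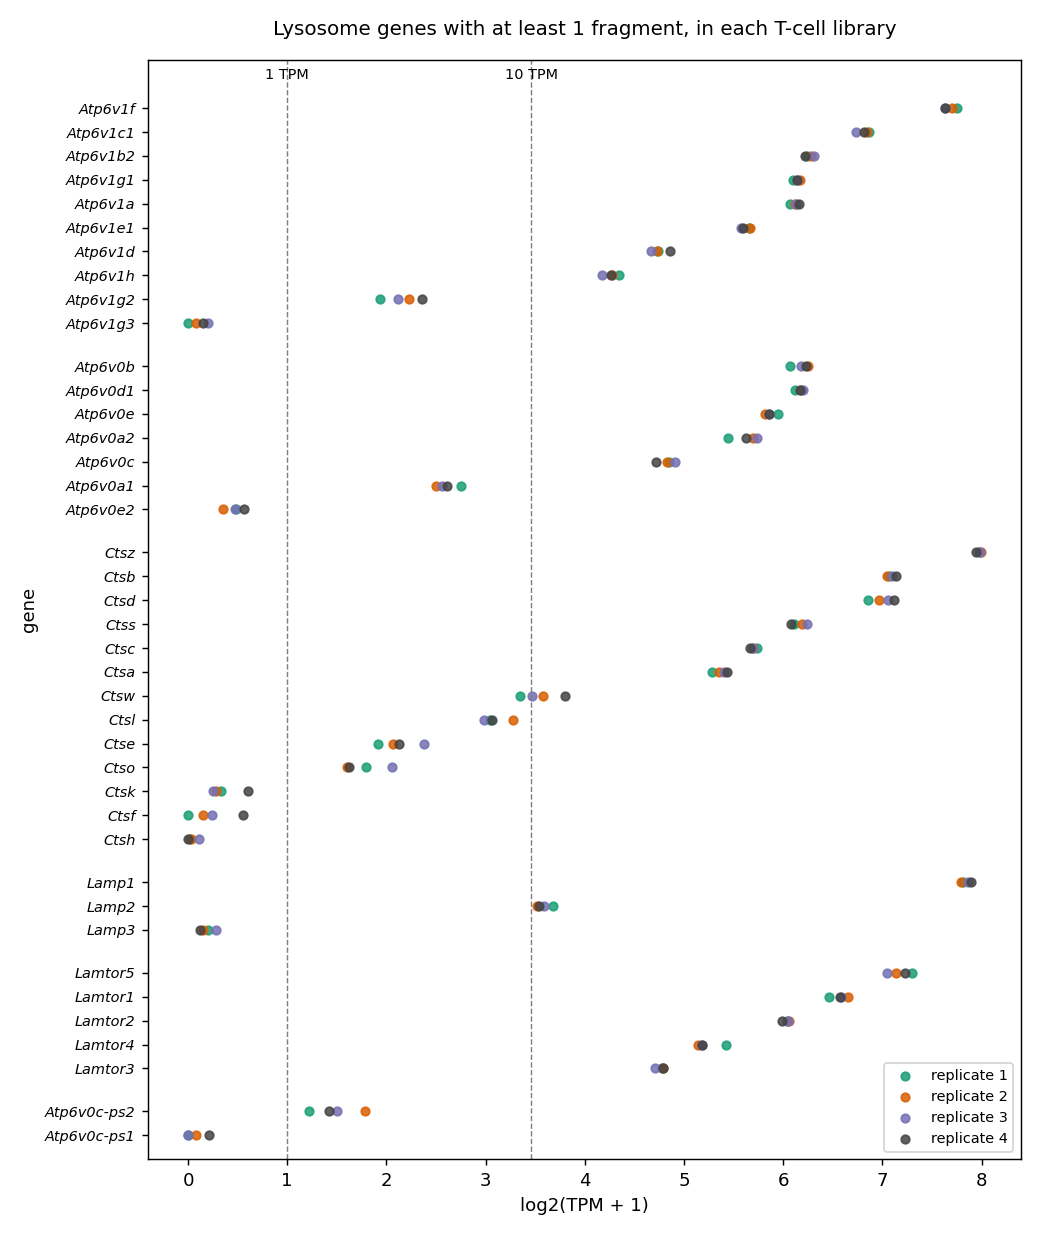
Level of each lysosome gene with at least 1 fragment, as log2(TPM + 1) on the horizontal axis, 1 point per library coloured by replicate, grouped by complex from V1 at the top to pseudogenes at the bottom. The dashed lines mark 1 and 10 TPM, and the points of the 26 genes right of the 10 TPM line lie close together, from Lamp2 at 10.5 to 11.8 TPM up to Ctsz at 245.0 to 253.8 TPM.

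Each V1 subunit was represented by 1 main gene at 10 TPM or more. Atp6v1f, subunit F of the rotor (ENSMUSG00000004285.12, mm10 chromosome 6, 29467718 to 29470512), had 214.6, 207.9, 196.7 and 196.8 TPM in replicates 1 to 4. Replicates 1 and 2 were the higher ones, and the gene stood above every other V1 gene in all libraries. Atp6v1c1, subunit C, which holds V1 and V0 together and is released when the pump is taken apart, followed at 111.6 ± 4.41 TPM. The subunits of the catalytic head were close to each other, with Atp6v1b2 (subunit B) at 74.7, 76.8, 78.3 and 73.3 TPM and Atp6v1a (subunit A) at 65.9, 68.3, 69.1 and 70.4 TPM. The ranges of these head subunits did not overlap. Among stalk genes Atp6v1g1 (subunit G) had 69.5 ± 1.33 TPM and Atp6v1e1 (subunit E) 48.3 ± 1.52 TPM. Of the 50-base words of Atp6v1g1 and Atp6v1f, 19.2% and 11.2% also occur in transcripts of other genes, so both levels, and the shares and ratios made from them, are less certain. The rotor gene Atp6v1d (subunit D) at 26.0 ± 1.504 TPM and Atp6v1h, the regulatory subunit H, at 18.2 ± 0.926 TPM were lowest of the 8. On principal transcript lengths Atp6v1d was lowest at 22.6 ± 1.28 TPM, and Atp6v1h stood at 60.0 ± 3.00 and Atp6v1e1 at 104.9 ± 3.21 TPM. Atp6v1b2 was then at 98.6 ± 3.02, Atp6v1c1 at 78.3 ± 3.01 and Atp6v1a at 67.7 ± 1.85 TPM. The closeness of the head subunits and the place of Atp6v1c1 after Atp6v1f thus hold on merged exon lengths only.

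The V0 sector had 5 genes at that level. Atp6v0b, the c″ subunit of the ring, had 66.0, 75.2, 71.4 and 73.9 TPM, lowest in replicate 1. Atp6v0d1 had 68.3, 71.3, 72.5 and 70.9 TPM, overlapping with Atp6v0b. Atp6v0e, a small membrane subunit, stood at 57.6 ± 2.33 TPM and Atp6v0a2, a subunit that forms the proton path with the ring, at 42.5, 50.8, 52.3 and 48.3 TPM, lowest in replicate 1. Atp6v0c, which encodes the c subunit of which the ring holds several copies, was the lowest of the 5 at 27.4 ± 1.498 TPM. Its value is a lower limit, because 27.4% of its exon bases also belong to another gene entry on the same strand and fragments overlapping several genes were not counted. Leaving those bases out of the length gave 37.7 ± 2.06 TPM, and on principal transcript lengths Atp6v0c stood at 54.3 ± 3.03 TPM, with Atp6v0a2 then lowest at 42.3 ± 3.79 TPM. Of its words of 50 bases, 10.8% also occur in transcripts of other genes. Atp6v0c-ps2 at 1.82 ± 0.464 TPM shared 90.1% of its words with other transcripts, so its 124 fragments cannot be assigned with certainty.

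Where the V-ATPase offers paralogs for 1 subunit, a single gene dominated in 6 of the 7 families, and the a subunit was the exception. Atp6v0a2 made up 51.2 ± 1.44% of the summed TPM of a-subunit genes, Tcirg1, the a3 form known from osteoclasts and immune cells, 43.3 ± 0.788% and Atp6v0a1, the form abundant in neurons, 5.43 ± 0.875% (SD, n = 4). On principal transcript lengths Atp6v0a2 and Tcirg1 were nearly equal at 47.0 and 46.5%, with Atp6v0a1 at 6.48%. Tcirg1 itself stood at 38.3, 42.8, 43.4 and 39.3 TPM on merged exon lengths. Its range overlapped that of Atp6v0a2, although Atp6v0a2 was the higher gene within each library. No fragment of Atp6v0a4, the kidney form, was counted in any library, which allows up to 0.0430 TPM in the shallowest. The G subunit came as 95.1 ± 0.709% Atp6v1g1 and 4.76 ± 0.658% Atp6v1g2, a form known from neurons. The e subunit was 99.3 ± 0.139% Atp6v0e. For the B, C, d and E subunits all fragments belonged to Atp6v1b2, Atp6v1c1, Atp6v0d1 and Atp6v1e1, and none to Atp6v1b1 of kidney, Atp6v1c2 of epithelia, Atp6v0d2 of osteoclasts or Atp6v1e2 of testis. Low members of the families had 5.75, 4.65, 4.88 and 5.09 TPM (Atp6v0a1), 2.83, 3.67, 3.33 and 4.12 TPM (Atp6v1g2) and 0.386 ± 0.0838 TPM (Atp6v0e2), and Atp6v1g3 had 15 fragments in all. Atp6v0c-ps1 had 3 fragments and Atp6v1fnb none.

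**Figure D3:**
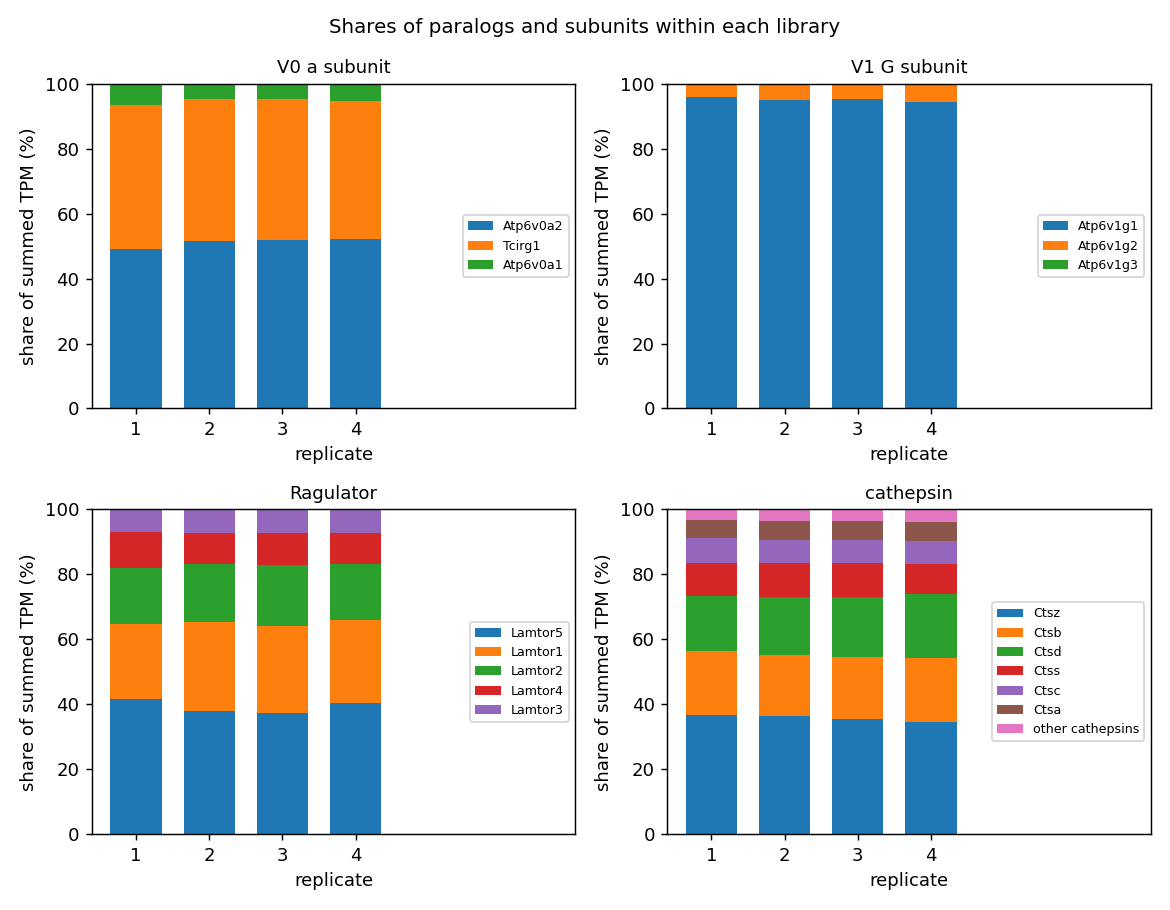
Share of the summed TPM (%, vertical axis) of each gene in the V0 a subunit, V1 G subunit, Ragulator and cathepsin families, stacked for replicates 1 to 4. The a-subunit bars are divided between Atp6v0a2 (49.1 to 52.1%) and Tcirg1 (42.4 to 44.3%), whereas Atp6v1g1 fills 94.3 to 96.0% of the G-subunit bars.

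Paralogs and related genes were set against each other within each library in 15 pairs. Atp6v0a2 exceeded Atp6v0a1 by 3.02 ± 0.24 and Atp6v1g1 exceeded Atp6v1g2 by 3.98 ± 0.16 in log2(TPM + 1) (difference within libraries ± SD, n = 4), with TPM ratios of 9.63 ± 1.62 and 20.3 ± 2.95. Atp6v0e was 155 ± 34.2 times the level of Atp6v0e2, a ratio that rests on 98 fragments of Atp6v0e2. Against paralogs without a fragment only a lower bound can be given, computed per library at the floor of 3 fragments. Atp6v1b2 was at least 1501-fold higher than Atp6v1b1, Atp6v0a2 at least 1123-fold higher than Atp6v0a4, Atp6v1c1 at least 1029-fold higher than Atp6v1c2, Atp6v0d1 at least 900-fold higher than Atp6v0d2 and Atp6v1e1 at least 221-fold higher than Atp6v1e2. The first gene was higher in 4 of 4 libraries in all 15 pairs. The pairs and their order were chosen with earlier results of these data known, and a gene without a fragment cannot be the higher one. The shared direction is therefore no independent support. An exact permutation test that flips the signs of the 4 differences (two-sided) gave p = 0.125 for each, also after Benjamini-Hochberg adjustment over the 15 pairs. With 4 libraries this is the smallest p the test can give, and 0.05 is out of reach.

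Cathepsins summed to 698.9 ± 15.2 TPM, and 3 of the 18 genes carried 73.4 ± 0.356% of it. Ctsz, a carboxypeptidase also called cathepsin X (ENSMUSG00000016256.10, chromosome 2, 174427493 to 174439039), had 249.7, 253.8, 252.8 and 245.0 TPM. Its coefficient of variation, 1.57%, was the smallest among the 26 genes at 10 TPM. Ctsb, an abundant cysteine protease that acts as endopeptidase and dipeptidase, had 133.3, 131.4, 135.9 and 139.7 TPM, a narrow range as well. Ctsd had 115.1, 124.0, 132.6 and 137.4 TPM, lowest in replicate 1. The value for Ctsd is a lower limit, since 34.4% of its exon bases also belong to the entry Gm49369 on the same strand, and leaving them out of the length gave 193.9 ± 14.96 TPM.

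The next cathepsins were Ctss, Ctsc and Ctsa. Ctss, a protease best known for trimming the invariant chain in antigen-presenting cells, had 68.2, 71.9, 74.7 and 66.5 TPM. The macrophage markers Csf1r and Fcgr1 and the dendritic-cell markers Itgax, Clec9a and Siglech had no fragment in any library. Of the summed macrophage markers, Cd68, itself a lysosomal glycoprotein gene, made up most at 5.22 to 8.11 TPM. Whether other cells contribute to Ctss was not tested. Ctsc, the dipeptidyl peptidase that activates granzymes, stood at 50.9 ± 1.01 TPM. Ctsa, a serine carboxypeptidase that also protects the lysosomal enzymes encoded by Neu1 and Glb1, stood at 40.4 ± 1.94 TPM. These genes lay in the order Ctss, Ctsc and Ctsa without overlap on merged exon lengths, but on principal transcript lengths Ctsc was at 82.2 ± 1.65 and Ctss at 48.9 ± 2.62 TPM.

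A lower tier held Ctsw, Ctsl, Ctse and Ctso. Ctsw, a cysteine protease known from natural killer and CD8+ T cells, had 9.15, 10.9, 10.1 and 12.9 TPM, beside 6 natural killer and cytotoxic markers. Of these, Cd8a stood at 0.804 to 0.862 and Prf1 at 0.489 to 0.883 TPM, Ncr1, Gzma and Klra1 were at 0.172 TPM or less, and Klrb1c had no fragment. Whether other cells contribute to Ctsw was not tested. Ctsl, a cysteine protease known for its role in thymic epithelium, had 7.24, 8.72, 6.89 and 7.38 TPM, highest in replicate 2. Ctsb was 18.04 ± 2.05 times the level of Ctsl, and Ctss 9.38 ± 1.09 times. Ctse, an aspartic protease of immune and epithelial cells, had 3.38 ± 0.597 TPM, so that Ctsd was 38.2 ± 4.52 times higher on merged exon lengths, a ratio that inherits the lower limit on Ctsd. Ctso, a further cysteine protease gene, had 2.44 ± 0.515 TPM. On principal transcript lengths Ctsl came to 1.67 ± 0.176 TPM and Ctse to 3.50 ± 0.622 TPM. For Ctsl that length is 6168 bases and comes from GENCODE vM21, whereas fragments were counted over 1971 bases of vM13 exons. Bases outside the counted exons could hold no counted fragment, so this lower value does not show that Ctsl lies below Ctse.

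The other 8 cathepsins were below 1 TPM in every library. Ctsk, the collagen-degrading protease of osteoclasts, had 48 fragments in all and 0.296 ± 0.151 TPM. Ctsf had 35 and the aminopeptidase gene Ctsh 13 fragments over the 4 libraries. Ctsg, a serine protease of neutrophil granules, had none, which allows up to 0.213 TPM in the shallowest library. Ctsj, Ctsm, Ctsq and Ctsr, a rodent cluster active in placenta, had none either, with limits of 0.128 to 0.178 TPM. The osteoclast markers Calcr, Ocstamp and Dcstamp were at or near 0 as well, whereas Acp5, an acid phosphatase on the same marker list, reached 24.1 to 30.1 TPM.

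The LAMPs differed from each other far more than between libraries. Lamp1 (ENSMUSG00000031447.7, chromosome 8, 13159161 to 13175338) had 224.3, 220.7, 232.6 and 237.5 TPM. Lamp2, which also takes part in autophagosome fusion, had 11.8, 10.5, 10.99 and 10.6 TPM, highest in replicate 1, with the pairs of replicates 1 and 2 and of 3 and 4 overlapping while these pairs differ in Xist. Lamp1 was 20.9 ± 1.399 times the level of Lamp2 and exceeded it by 4.26 ± 0.09 in log2(TPM + 1). On principal transcript lengths Lamp1 stood at 190.3 ± 6.44 TPM and Lamp2 at 20.2 ± 1.12 TPM. Lamp3, a marker of mature dendritic cells, had 52 fragments in all and 0.140 ± 0.0553 TPM.

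All 5 Ragulator genes passed 10 TPM in each library. Lamtor5 had 156.2, 139.3, 131.2 and 148.5 TPM and Lamtor1, the lipid-anchored subunit that wraps around the others, had 87.3, 99.8, 94.9 and 94.1 TPM. Replicate 1 was highest for Lamtor5 and lowest for Lamtor1. Lamtor2 and Lamtor3, which form 1 of the 2 dimers of the scaffold, had 64.6 ± 1.35 and 26.2 ± 0.722 TPM. Lamtor4, the partner of Lamtor5, had 41.8, 34.3, 35.3 and 35.4 TPM, with replicate 1 above the others. The subunits therefore spanned a 5.48-fold range on merged exon lengths. On principal transcript lengths Lamtor1 took 40.3% of the summed level of the 5 genes and Lamtor5 21.5%, where merged exon lengths gave 25.8% and 39.3%. Lamtor4 was then the lowest at 37.8 ± 3.54 TPM. Of the 50-base words of these genes, 14.5% for Lamtor5, 8.09% for Lamtor1 and 5.46% for Lamtor3 also occur in transcripts of other genes, so these levels are less certain.

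Of 25 genes of the Rag and mTORC1 machinery, all 25 passed 1 TPM and 21 passed 10 TPM in each library, and their median was 25.7 TPM. Rraga, encoding the GTPase RagA that binds Ragulator, had 140.3 ± 5.41 TPM and its partner gene Rragc 61.1 ± 0.668 TPM. Tsc2, which restrains mTORC1, had 62.0 ± 5.40 TPM and Mlst8, a subunit of mTORC1, 61.1 ± 5.40 TPM. Within the pairs of alternative Rag genes 1 form prevailed by level, Rraga beside Rragb at 11.1 ± 0.748 TPM and Rragc beside Rragd at 4.15 ± 0.873 TPM. The arginine sensor gene Slc38a9 was low at 3.43 ± 0.311 TPM.

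V-ATPase partners outside the set were transcribed as well, with 8 of 11 genes at 10 TPM or more. Atp6ap1 and Atp6ap2, both X-linked accessory subunits, had 103.0 ± 5.42 and 59.2 ± 3.64 TPM. The assembly factor genes Ccdc115 and Tmem199 stood at 73.2 ± 2.68 and 57.9 ± 3.70 TPM. Rnasek, whose product copurifies with V0, was at 1.64 ± 0.629 TPM, but 67.7% of its exon bases belong to another gene entry on the same strand, so this is a lower limit.

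Other lysosomal hydrolases and cofactors were present throughout. All 24 passed 1 TPM and 19 passed 10 TPM in each library, and their median was 29.4 TPM. Psap, the precursor of the saposins that help degrade sphingolipids, had 267.4 ± 15.7 TPM, the cholesterol carrier gene Npc2 135.4 ± 4.03, the β-glucuronidase gene Gusb 124.5 ± 3.18 and the acid α-glucosidase gene Gaa 57.6 ± 4.45 TPM. Among 13 membrane and sorting genes 9 were at 10 TPM, led by both receptors for mannose 6-phosphate, M6pr at 267.2 ± 5.34 and Igf2r at 74.3 ± 6.95 TPM, and by Gnptab at 54.8 ± 3.13 TPM, which makes that tag. Tmem192, a lysosomal membrane protein gene, came next at 44.8 ± 2.19 TPM. Of 8 cathepsin inhibitor genes 5 were at 10 TPM, with the cystatins Cst7 at 114.1 ± 3.09, Cstb at 86.8 ± 7.55 and Cst3 at 82.1 ± 3.57 TPM and the serpin Serpinb6b at 39.0 ± 2.70 TPM. Among the transcription factors, Tfe3 had 26.5 ± 1.196, Tfeb 6.43 ± 0.696 and Mitf 0.563 ± 0.0942 TPM, and no fragment of Tfec was counted.

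**Figure D4:**
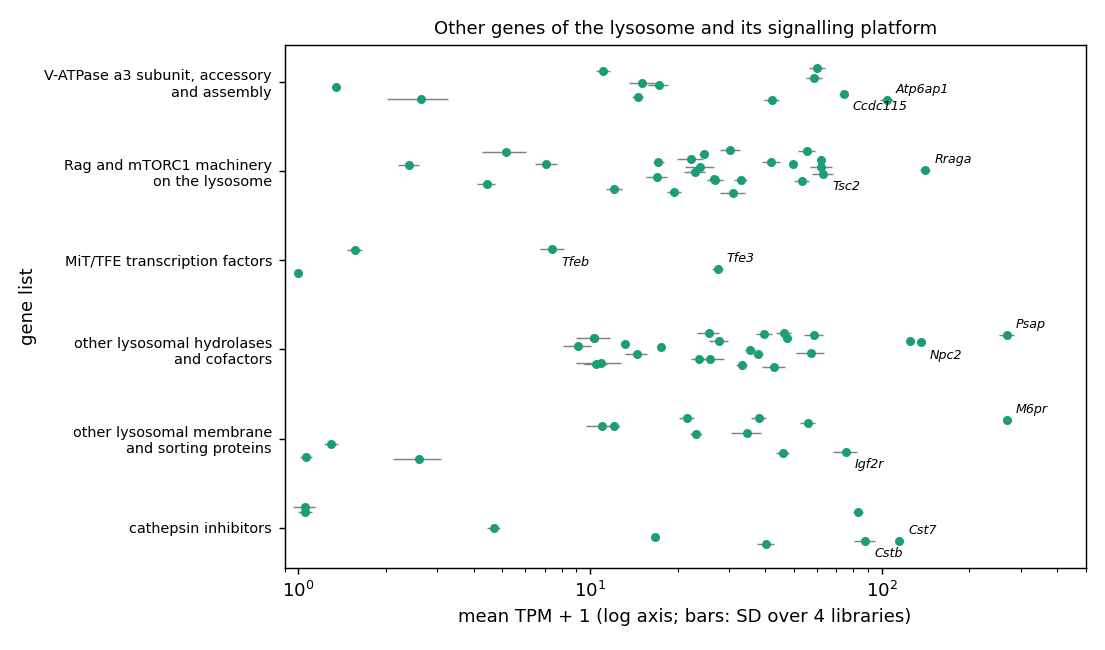
Mean TPM plus 1 (log axis) of the genes in 6 lists of lysosome-related genes outside the set, 1 point per gene with bars of 1 SD over the 4 libraries; vertical offsets only separate points. Psap and M6pr, near 267 TPM, lie furthest to the right, and among the MiT/TFE factors Tfe3 at 26.5 TPM lies right of Tfeb at 6.43 TPM.

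No lysosome gene was called as varying between libraries. The edgeR test asked whether a gene's 4 counts spread more than the dispersion trend of genes of like abundance. Of the 33 members with enough counts for it, Atp6v0e2 among them and Atp6v0c-ps2 not, 0 had an adjusted p under 0.05 over 12712 genes. Of all tested genes 0.362% did, so at this background a count of 0 among 33 says little. At an unadjusted p under 0.05 stood 0 of the 33, against 5.54% of all genes, which with 33 genes says little as well. With DESeq2 size factors and dispersions 0 were called. The largest deviance of the set was that of Atp6v0a2, 5.88, followed by Ctsd with 4.99 and Ctso with 3.79. The median deviance was 1.402 for the set and 1.98 for all tested genes. For the 26 members at 10 TPM the coefficient of variation ran from 1.57 to 9.36% with a median of 4.18%, beside 5.66% for the 8109 genes at that level. Replicate 1 was highest for 8 and lowest for 8 of the 26, replicate 2 for 6 and 5, replicate 3 for 5 and 7 and replicate 4 for 7 and 6. Of all genes at that level, replicate 1 was highest for 30.9% and lowest for 35.8%, replicate 2 for 26.5 and 13.1%, replicate 3 for 25.9 and 22.9% and replicate 4 for 16.7 and 28.1%.

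**Figure D5:**
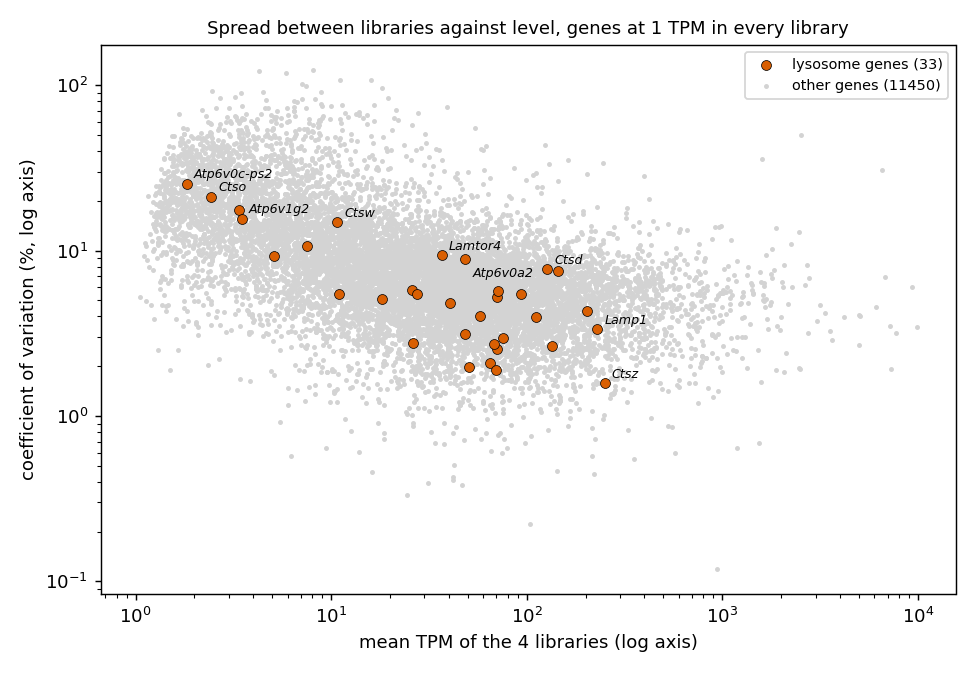
Coefficient of variation between the 4 libraries (%, log axis) against mean TPM (log axis) for genes that passed 1 TPM in each library, with 33 lysosome genes in orange and the other genes in grey. The lysosome genes lie within the cloud of genes of like level, from Ctsz at 1.57% to Atp6v0c-ps2 at 25.5%.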

How the data were processed

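The 4 libraries measure RNA of T cells in 1 group. The deposited values are whole fragment counts per gene. They were made by the authors with featureCounts 1.4.6-p4 over GENCODE vM13 exons, per the file headers, with both mates required and strand setting 2 (reverse-stranded). The recorded command does not enable counting of reads with several alignments or over several genes, which lowers counts of genes with close copies or same-strand neighbours. Alignment file names end as those of STAR do, and the labels give mm10.

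Symbols came from GENCODE vM21 (50376 of 50600 identifiers matched). TPM was computed here from counts and the merged exon length in the files. Principal transcript lengths came from GENCODE vM21, whereas the counts cover vM13 exons. They replaced the lengths of all genes before scaling, so TPM of a gene also changes where its own length does not. Variation between libraries was tested with edgeR 4.0.16 (R 4.3.3): filterByExpr with a minimum count of 10, TMM, an intercept-only model with trended dispersion, deviance against chi-square with 3 degrees of freedom and Benjamini-Hochberg adjustment over 12712 genes. DESeq2 1.42.0 gave alternative size factors and dispersions. Pairs used an exact sign-flip permutation test on log2(TPM + 1). Python 3.11.15 with numpy 2.4.6, pandas 2.3.3 and matplotlib 3.10.9 was used.

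No label names separate animals. Replicates 1 and 2 differ from replicates 3 and 4 in Xist and Ddx3y, so these pairs do not share 1 source, whereas the spread within each pair may be technical. The p-values measure only the spread among these 4 samples. All libraries were kept, since every pair differed beyond counting noise (chi-square of 9.14 to 29.1 per degree of freedom). The members, gene lists, pairs and tests were chosen with earlier results of these data known. Named are all members, and in each other lysosome list the 4 most abundant genes, with Tcirg1, Atp6ap1, Atp6ap2, Tfeb, Tfe3 and Mitf; Rnasek, Rragb, Rragd, Slc38a9, Tfec and single marker genes were named after their values were seen. Promoters are from RefSeq.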

Additional observations from a re-analysis of the deposited data

Results flagged for a closer look

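Among 45 sets of 4 library values (the members with a fragment and the sums of 5 classes), 1 had a single library that stood apart by Dixon's test for 4 values. Lamtor4 stood at 41.8 TPM in replicate 1 and at 34.3 to 35.4 TPM in the other 3 libraries, a gap of 0.861 of the range. Chance gives about 1 such set in 20, and the edgeR test did not call this gene (adjusted p = 1.00, deviance 2.79).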

How the results depend on the processing

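The count of 0 members varying between libraries held in all 10 alternatives, while the count over all genes, 46, became 862 with a common dispersion. In that setting 1 of the 33 tested members, Ctso, had an unadjusted p under 0.05, against 14.2% of all genes. Leaving out single replicates gave 25 to 40 such genes, the lowest without replicate 2. The 33 members at 1 TPM became 32 by CPM and on principal transcript lengths and stayed 33 in the other alternatives, and the 26 at 10 TPM became 27 without replicate 1 and stayed 26 otherwise. The median over all members, 10.98 TPM, was 14 by CPM, 20.17 on principal transcript lengths and 50.91 over members at 1 TPM only, and 10.99 to 11.29 with a replicate left out. All 15 pairs kept their direction in all 8 alternatives each, which could not turn out otherwise where the second gene had no fragment. Principal transcript lengths, and leaving shared exon bases out of the lengths of Ctsd and Atp6v0c, were chosen after the data were seen. Levels compared between genes therefore hold only for the exon length stated. No paired analysis was possible because the labels give 1 group.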
